A study of Mus musculus with 67 samples.

Results

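The constitutive proteasome subunit genes were followed as 1 list of 41 genes among the 24546 gene features of the second RNA-seq experiment. The rule for members uses gene symbols and no threshold on values: Psma, Psmb, Psmc or Psmd followed by a digit, without the inducible immunoproteasome subunits Psmb8, Psmb9 and Psmb10, plus the activator genes Psme1 to Psme4. The list holds 8 genes of the alpha ring and 8 of the beta ring of the 20S core, 6 ATPase and 14 non-ATPase genes of the 19S cap, and 4 activator genes. The remaining member, Psmc3ip, shares the symbol stem of an ATPase subunit but encodes a factor of homologous recombination and no subunit. All 41 symbols were also among the 24421 symbols of the pilot experiment.

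The second experiment compared 59 libraries of T cells sorted from the hypothalamus and from the rest of the brain (rest brain from hereon) of Foxp3GFP reporter mice, in which green fluorescent protein marks cells with the Treg transcription factor Foxp3. There were 29 libraries of activated conventional CD4+ T cells (CD25-Foxp3GFP-CD44hiCD62Llow, activated T cells from hereon) and 30 of CD25+Foxp3GFP+ Tregs, from Balb/c or C57Bl/6J mice. The mice were fed a standard diet (SD) or a diet high in fat and sugar (HFHS diet). Each strain, diet and cell type had 4 hypothalamic libraries. In rest brain, activated T cells had 4 libraries of C57Bl/6J mice on SD and 3 in each other group, and Tregs had 2 libraries of Balb/c mice on SD and 4 in each other group. Every library came from a pool of mice, and the labels give each a pool label (such as 15_21) that recurs across tissues and cell types, without saying that these are the same mice. All mice of this experiment carried the reporter. Females were used for Balb/c and males for C57Bl/6J, and strain and sex cannot be told apart. The pilot experiment holds 8 hypothalamic libraries, 1 for each condition: CD4+ T cells and Tregs of leptin-deficient ob/ob females and wild-type Bl6 (C57Bl/6J) females (pools of 7), and CD44- T cells labelled naive and Tregs of female Foxp3GFP Balb/c mice after 16 weeks on SD or HFHS diet (pools of 9).

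Total estimated counts were 11340063 to 28187008 in activated T cells and 1724149 to 38482277 over all 59 libraries. The T-cell markers Cd3d, Cd3e, Cd3g and Cd4 summed to 4711 to 6583 CPM, the share of a library's counts taken by a gene, in activated T cells. Foxp3 was at 241 to 767 CPM in rest brain Tregs and at most 13.8 CPM in activated T cells, but 4 of the 16 hypothalamic Treg libraries had less than 5 CPM of it and go against their label in this gene, which defines the sort. Other Treg markers were not uniformly low in them: Ikzf2 was at 27.0 to 1711 CPM (at most 51.5 CPM in hypothalamic activated T cells), Il2ra at 666 and 757 CPM in 2 of them and at 0.098 CPM or less in the others, and Ctla4 at 6.90 to 1570 CPM. In hypothalamic Tregs the T-cell markers summed to 149 to 7035 CPM and 5 microglia markers to 0.057 to 20488 CPM. These libraries stand apart from the others, and the main results of hypothalamic Tregs are given with and without the 4 low in Foxp3 (3 of C57Bl/6J mice and 1 of Balb/c mice). Since the samples are bulk, fewer cells of a type and less RNA per cell cannot be told apart.

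The proteasome degrades proteins that carry ubiquitin chains. Its 20S core is a barrel of alpha rings, which gate the entrance, around beta rings, in which Psmb5, Psmb6 and Psmb7 encode the catalytic subunits. In immune cells Psmb8, Psmb9 and Psmb10 can take the places of Psmb5, Psmb6 and Psmb7 and form the immunoproteasome, known for making peptides for antigen presentation. The 19S cap binds, unfolds and feeds in the substrate through a ring of ATPases (Psmc genes) and non-ATPase subunits (Psmd genes), while Psme1 and Psme2 encode the interferon-inducible PA28 activator and Psme3 and Psme4 other activators. Subunit genes are known to rise together under the transcription factor Nfe2l1, which acts through an antioxidant-type element when the proteasome is inhibited.

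Promoter windows of 300 bases (250 before and 50 after the start) were taken from RefSeq on GRCm38.p6, where 34 of the 41 members matched with 37 windows. The motif TGACNNNGC, read on both strands, was in 16.22% of member windows and in 12.39% of all 32851 windows. CCAAT was in 37.84% and 37.41%, and GGGCGG in 59.46% and 35.66%. The 150 bases before the start are printed for 6 members, with every match in capitals. For Psmb6 and Psmd2 the start used lies after the first base of the gene span. The bases shown for Psmb6 thus lie partly, and those for Psmd2 wholly, inside that span. Psmb5 and Psmb6 are shown as catalytic subunits whose windows hold TGACNNNGC, 47 and 9 bases before the start. Psma1 and Psma2 were among the members higher in Balb/c than in C57Bl/6J rest brain activated T cells below. They hold CCAAT (98 and 126 bases before the start of Psma1, 54 bases before that of Psma2), and Psma1 also holds GGGCGG at 49 and 68 bases. Psmd2 and Psme3 were lower there, and hold GGGCGG at 52 bases and CCAAT on the reverse strand at 14 bases. Psmb5 lies at chr14:54617996-54618145 (minus strand), Psmb6 at chr11:70525207-70525356 (plus strand), Psma1 at chr7:114276117-114276266 (minus strand), Psma2 at chr13:14613092-14613241 (plus strand), Psmd2 at chr16:20651502-20651651 (plus strand) and Psme3 at chr11:101316063-101316212 (plus strand).
Psmb5: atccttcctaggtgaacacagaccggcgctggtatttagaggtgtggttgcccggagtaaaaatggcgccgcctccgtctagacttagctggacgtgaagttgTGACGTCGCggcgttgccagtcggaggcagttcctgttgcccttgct
Psmb6: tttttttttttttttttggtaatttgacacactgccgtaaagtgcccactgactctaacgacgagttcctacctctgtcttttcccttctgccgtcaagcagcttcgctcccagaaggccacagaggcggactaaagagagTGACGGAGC
Psma1: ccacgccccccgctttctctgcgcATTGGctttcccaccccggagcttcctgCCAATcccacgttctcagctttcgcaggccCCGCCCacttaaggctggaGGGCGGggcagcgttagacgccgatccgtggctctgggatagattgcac
Psma2: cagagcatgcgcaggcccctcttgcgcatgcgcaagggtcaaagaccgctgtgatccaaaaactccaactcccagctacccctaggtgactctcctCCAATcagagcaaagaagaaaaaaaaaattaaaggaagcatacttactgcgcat
Psmd2: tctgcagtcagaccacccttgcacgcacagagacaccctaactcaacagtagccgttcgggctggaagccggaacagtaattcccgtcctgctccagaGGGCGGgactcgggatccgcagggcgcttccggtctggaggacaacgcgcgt
Psme3: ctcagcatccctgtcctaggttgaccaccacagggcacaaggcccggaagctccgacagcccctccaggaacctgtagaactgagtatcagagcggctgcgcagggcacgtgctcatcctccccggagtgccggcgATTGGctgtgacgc

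Levels were compared between genes per transcript length, as deposited TPM (transcripts scaled to length and library). Over the 29 libraries of activated T cells, the PA28 genes were the most abundant members, Psme2 at 1324 ± 134 TPM (SD, n = 29) and Psme1 at 898 ± 101 TPM. Reads of Psme2 and of its near-identical copy Psme2b may have been split between them, so the level of Psme2 is uncertain. The core genes Psma2 (840 ± 114 TPM) and Psmb3 (801 ± 133 TPM) followed, within 1 SD of Psme1. By role, the median of the mean TPM was 450 for the alpha ring, 324 for the beta ring, 177 for the ATPases, 98.7 for the non-ATPases and 471 for the activators. The 6 ATPase genes lay close together, between 161 TPM (Psmc2) and 211 TPM (Psmc4). The non-ATPase genes ranged from 25.5 TPM for Psmd9, an assembly chaperone of the cap, to 242 TPM for Psmd4, a ubiquitin receptor of the cap. At the low end were Psme3 (43.9 TPM), Psmc3ip (17.9 TPM) and Psme4 (5.58 TPM), which encodes the PA200 activator. The tissue-restricted members were near 0: Psma8, an alpha subunit of the testis, averaged 0.062 TPM and Psmb11, a catalytic subunit of the thymic cortex, 0.039 TPM.

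**Figure D1:**
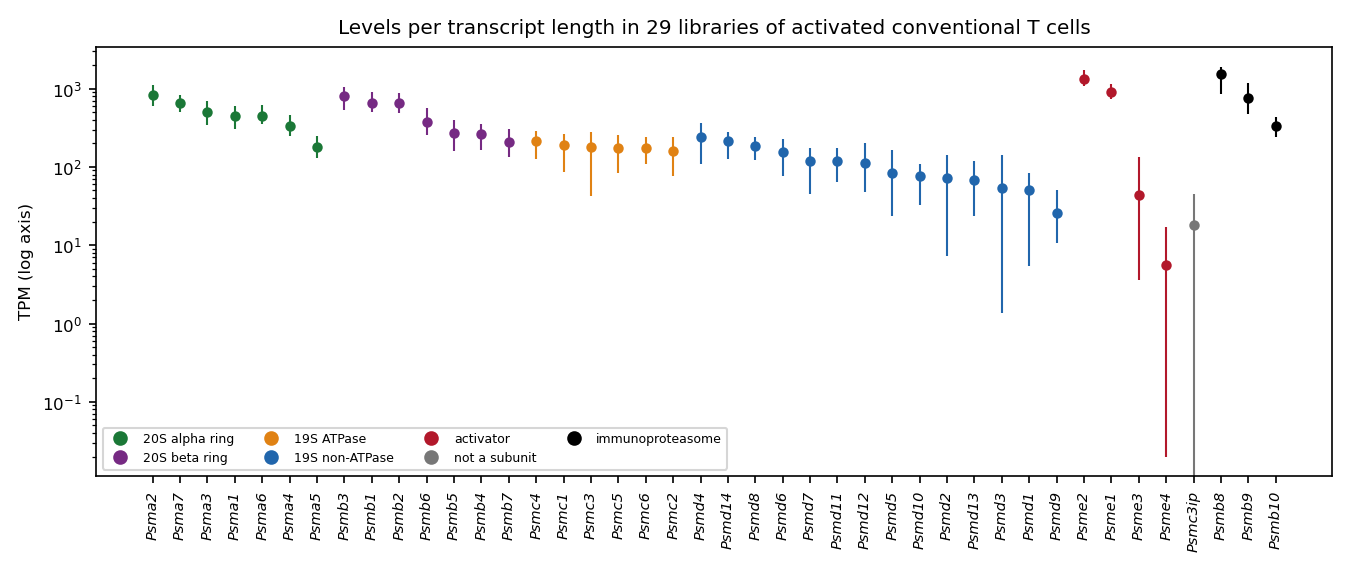
Mean TPM (log axis) of each member over the 29 libraries of activated T cells, coloured by role, with a line from the lowest to the highest library; members with a mean above 1 TPM are drawn, and the line of Psmc3ip, which reaches 0, is cut at the axis. Core and PA28 genes lie above most cap genes, and Psmd3, Psmd2 and Psmc3 have wide lines among genes of their level.

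Of the catalytic subunits, Psmb6 was at 378 ± 47.8 TPM, Psmb5 at 269 ± 54.0 TPM and Psmb7 at 211 ± 41.5 TPM in activated T cells. The inducible counterparts were higher, at 1535 ± 278 TPM for Psmb8, 758 ± 190 TPM for Psmb9 and 333 ± 53.0 TPM for Psmb10. The inducible genes thus made up 77.1% ± 2.47 (SD, n = 16) of the TPM of all 6 catalytic genes in hypothalamic activated T cells and 72.5% ± 2.83 (n = 13) in rest brain ones. In rest brain Tregs the share was 74.3% ± 4.63 (n = 14). Hypothalamic Tregs averaged 75.2% but ran from 53.5% to 99.995%, and in the library with the highest share the 3 constitutive catalytic genes summed to 0.145 TPM. Without the 4 libraries low in Foxp3 they averaged 78.6% (n = 12; 57.4% to 99.995%).

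The summary of the list in a library was the mean of log2(CPM + 1) over the 41 members (member score). It was 7.16 ± 0.11 (SD, n = 16; 6.83 to 7.29) in hypothalamic activated T cells, 7.12 ± 0.08 (n = 13; 6.94 to 7.23) in rest brain activated T cells and 7.00 ± 0.32 (n = 14; 6.10 to 7.36) in rest brain Tregs. Hypothalamic Tregs had a lower mean score and were far more spread, at 5.72 ± 1.27 (n = 16; 3.46 to 7.34), or 6.10 ± 0.998 (n = 12; 4.12 to 7.34) without the libraries low in Foxp3, and overlapped the other groups. The summed CPM of the members was not lower in them, at 9811 ± 2056 (10329 ± 2024 without the libraries low in Foxp3), against 9329 ± 743 in hypothalamic activated T cells and 9304 ± 1155 in rest brain Tregs. In activated T cells the mean scores of the strains differed by less than their SD: 7.15 ± 0.14 in C57Bl/6J and 7.16 ± 0.07 in Balb/c mice for the hypothalamus (n = 8 each), and 7.12 ± 0.06 (n = 7) and 7.11 ± 0.11 (n = 6) for rest brain. The sum of the members' CPM, which is carried by the abundant core and PA28 genes, was 8956 ± 427 in C57Bl/6J and 10846 ± 908 in Balb/c rest brain activated T cells.

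**Figure D2:**
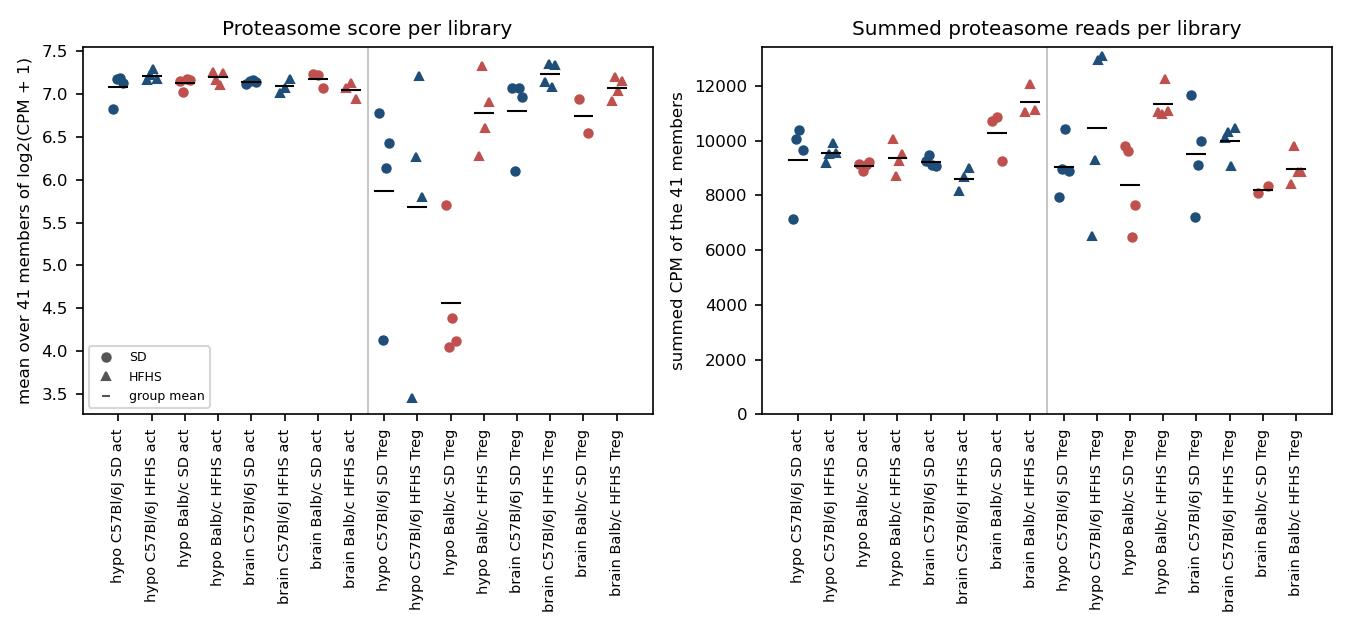
Member score, the mean log2(CPM + 1) over the 41 members (left), and summed CPM of the members (right) of each library in the 16 groups of tissue, cell type, strain and diet; circles are SD, triangles HFHS, blue C57Bl/6J, red Balb/c and lines group means (hypo, hypothalamus; brain, rest brain; act, activated T cells). Scores of activated T cells lie between 6.83 and 7.29, and those of hypothalamic Tregs between 3.46 and 7.34.

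Within groups the members had a lower median spread than the genes whose mean lay anywhere between that of the lowest and of the highest member, except over all hypothalamic Tregs. These genes were not matched to the members by level, and the values are a description. The median within-group SD of log2(CPM + 1) over the 39 members was 0.28 in hypothalamic activated T cells, against 0.64 for the 7539 genes of that range. The same medians were 0.20 against 0.49 in rest brain activated T cells and 0.55 against 1.72 in rest brain Tregs. In hypothalamic Tregs they were 2.95 against 2.90, and 2.26 against 2.78 without the libraries low in Foxp3. Psmb3 had the lowest SD of the members in rest brain activated T cells (0.12), and Psme4 the highest (1.04).

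The clearest difference among the members lay between the strains in rest brain activated T cells. With TMM-scaled counts, Balb/c mice had more mRNA of the alpha ring, of 4 of the 8 beta-ring genes and of PA28, and less of Psmd2, Psmd3, Psmc3 and Psme3, than C57Bl/6J mice. Of 40 members tested, 21 were called by edgeR's quasi-likelihood test at a Benjamini-Hochberg adjusted p under 0.05, 17 higher and 4 lower in Balb/c mice (n = 6 and 7). The background over all 12289 genes tested was 23.5% called, 12.1% higher and 11.3% lower. The median log2 fold change was 0.35 over the members and -0.03 over all genes. All 7 tested alpha-ring genes rose (log2 fold changes of 0.65 to 0.95), and so did 4 of 8 beta-ring genes, while the others of that ring did not pass. Of the ATPases 1 rose and 1 fell, of the non-ATPases 3 rose and 2 fell of 14, and of the activators 2 rose and 1 fell of 4. On SD alone 8 of 39 members were called (7.15% of all genes) and on HFHS diet alone 22 of 39 (20.8% of all genes), and whether the strain difference differs between the diets was not tested.

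Psmb2, a beta-ring subunit without catalytic activity (chr4:126677637-126709715, GRCm38.p6 here and below), had a lowest, median and highest value of 229, 312 and 359 CPM in C57Bl/6J and of 462, 546 and 673 CPM in Balb/c rest brain activated T cells. The strains did not overlap, and the log2 fold change was 1.08 ± 0.17 (SE, adjusted p = 0.000184). Psmb1 (chr17:15475721-15498276), another beta-ring gene, was at 363, 416 and 488 CPM against 520, 702 and 869 CPM, a log2 fold change of 1.03 ± 0.17 (adjusted p = 0.000199). The catalytic Psmb7 (chr2:38588046-38643952) was at 94.4, 135 and 153 CPM against 185, 211 and 231 CPM, with no overlap and a log2 fold change of 0.98 ± 0.17 (adjusted p = 0.000334). Both genes were thus about as much higher in Balb/c mice as Psmb2. Of the other catalytic genes, Psmb6 was at 214, 253 and 299 CPM against 300.4, 334 and 384 CPM (log2 fold change 0.72 ± 0.16, adjusted p = 0.00252). Psmb5 was at 127, 163 and 175 CPM against 119, 149 and 162 CPM, overlapped, and did not pass. Its log2 fold change was 0.20 with TMM factors (adjusted p = 0.36) but -0.08 with library totals, the scale of the CPM given here. Of the 3 catalytic genes, Psmb6 and Psmb7 were thus called and Psmb5 was not.

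Of the alpha ring, Psma1 was at 278, 370 and 466 CPM in C57Bl/6J and at 509, 591 and 754 CPM in Balb/c mice (log2 fold change 0.95, adjusted p = 0.000592). Psma2 was at 432, 483 and 584 CPM against 594, 777 and 1001 CPM (0.95, adjusted p = 0.000432). Both were separate between the strains in CPM. Of PA28, Psme2 was at 579, 680 and 765 CPM against 814, 1015 and 1359 CPM (0.84 ± 0.15, adjusted p = 0.000464), and Psme1 at 433, 568 and 677 CPM against 589, 668 and 692 CPM (0.48 ± 0.15, adjusted p = 0.0248). Psme2 was separate and Psme1 overlapped, and Psme1 lost its call without 5 of the 13 libraries in turn.

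Of the members that fell, Psmd3 (chr11:98682554-98695978), a subunit of the lid of the cap, had the largest change. It was at 48.0, 96.6 and 143 CPM in C57Bl/6J and at 3.18, 15.7 and 27.3 CPM in Balb/c rest brain activated T cells, a log2 fold change of -2.56 ± 0.39 (adjusted p = 0.000139). Psmd2 (chr16:20651122-20663414), a large subunit of the base of the cap, was at 124, 221 and 302 CPM against 24.8, 74.3 and 102 CPM (-1.31 ± 0.23, adjusted p = 0.000498). Psme3 (chr11:101316213-101323537), which encodes the nuclear activator PA28gamma, was at 92.2, 126 and 143 CPM against 10.4, 40.0 and 68.9 CPM (-1.37 ± 0.27, adjusted p = 0.00101). In all 3 genes the highest Balb/c library lay below the lowest C57Bl/6J library. The ATPase Psmc3 (chr2:91054016-91059438) was at 168, 222 and 274 CPM against 74.4, 120 and 155 CPM (-0.69 ± 0.15, adjusted p = 0.00235). Psmd1, the other large subunit of the base, was at 108, 143 and 207 CPM against 19.9, 89.8 and 126 CPM and did not pass (-0.63, adjusted p = 0.107).

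**Figure D3:**
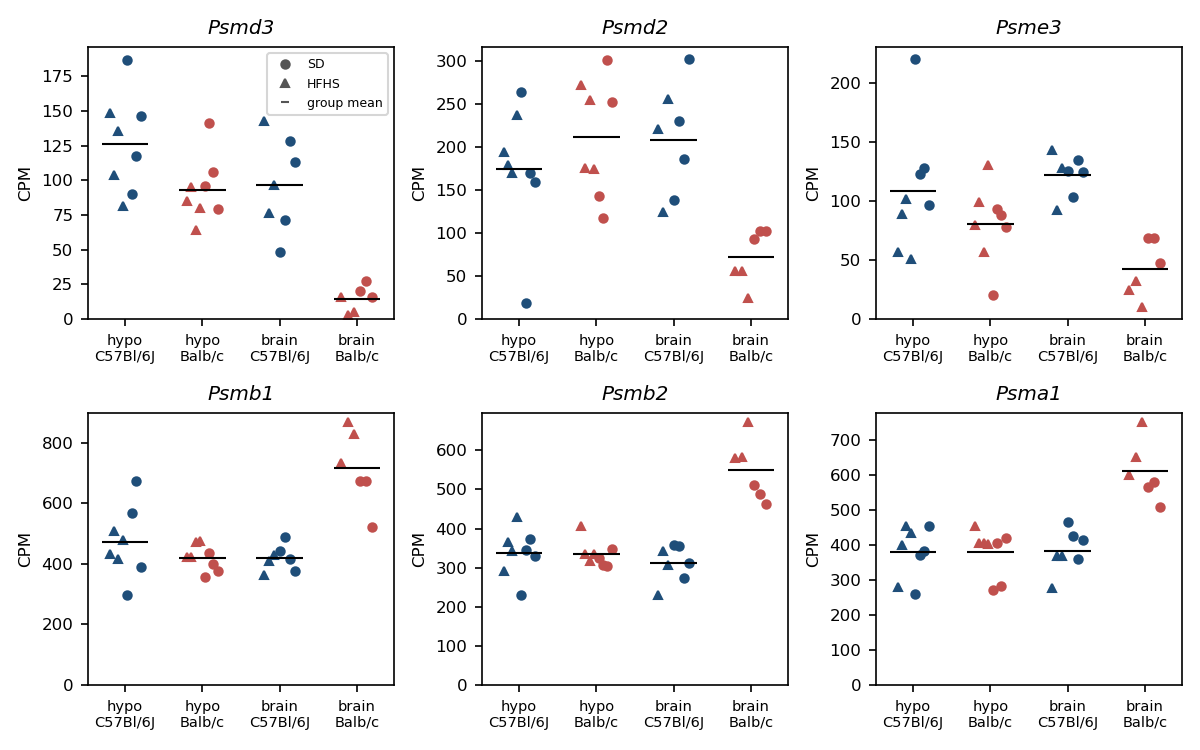
CPM of 6 members in each library of activated T cells by tissue and strain (blue C57Bl/6J, red Balb/c, circles SD, triangles HFHS, lines group means). In rest brain the Balb/c libraries lie below those of C57Bl/6J mice for Psmd3, Psmd2 and Psme3 and above them for Psmb1, Psmb2 and Psma1, while the strains overlap in the hypothalamus.

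The size, and for some members the direction, of this strain difference depended on how libraries were scaled. Library totals in place of TMM factors moved the median of all genes from -0.03 to -0.30 and that of the members from 0.35 to 0.08, and 20 members were called, 13 higher and 7 lower (25% of all genes). On the deposited TPM, tested with limma on log2(TPM + 1), the medians were -0.47 over all genes and -0.26 over the members, and 23 members were called, 5 higher and 18 lower (36.1% of all genes). With an offset for transcript GC content and length, 12 members were called, 5 higher and 7 lower (14.1% of all genes). Of the 17 members that rose, all 17 stayed above 0 with library totals, 13 on TPM and 12 with the offset; Psme1 turned to -0.19 on TPM (adjusted p = 0.049) and Psma2 to -0.38 with the offset (adjusted p = 0.00704). Psmb2 was called higher under each of these scalings and under DESeq2's size factors, with log2 fold changes of 0.31 to 1.12, and Psmd3 (-3.05 to -1.68), Psmd2 (-1.90 to -0.66) and Psme3 (-2.01 to -0.88) were called lower under each. Psmc3 fell by 0.36 to 1.34 on the log2 scale and missed the threshold with the offset (adjusted p = 0.0828).

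Transcript length moved with this comparison over all genes. With 6833 genes in 10 bins of equal size by length, in the shortest bin (median length 773 bases) the median log2 fold change was 0.95 and that of the 9 members there 0.84, and in the next bin (1233 bases) the medians were 0.44 over all genes and 0.72 over 11 members. In the sixth bin (2827 bases) they were -0.48 over all genes and -1.34 over the 2 members there. Psmb2 (847 bases), Psma2 (946 bases) and Psmb1 (1036 bases) have short transcripts, and Psmd3 (2147 bases), Psme3 (2619 bases) and Psmd2 (3007 bases) longer ones. Psmb5 (871 bases) and Psmb3 (731 bases) are short as well and were not called. Spearman's rho with length was -0.28 over all genes and -0.63 over 38 members, a description of genes that share these libraries. In the hypothalamus the medians of the bins lay between -0.04 and 0.04. The part of length in the strain difference was not tested beyond the offset and TPM above. Of markers of other cells, 5 microglia markers summed to 68.9 to 111 CPM in C57Bl/6J and to 82.2 to 665 CPM in Balb/c rest brain activated T cells. The CD8 markers Cd8a and Cd8b1 moved with the strain, summing to 276 to 479 CPM in all 6 Balb/c libraries and to 1.94 to 74.6 CPM in 6 of the 7 C57Bl/6J libraries, with 736 CPM in the other one, SD pool 01_05. Without that library 21 members were called as well, 17 higher and 4 lower. The part of these markers in the result was not tested.

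**Figure D4:**
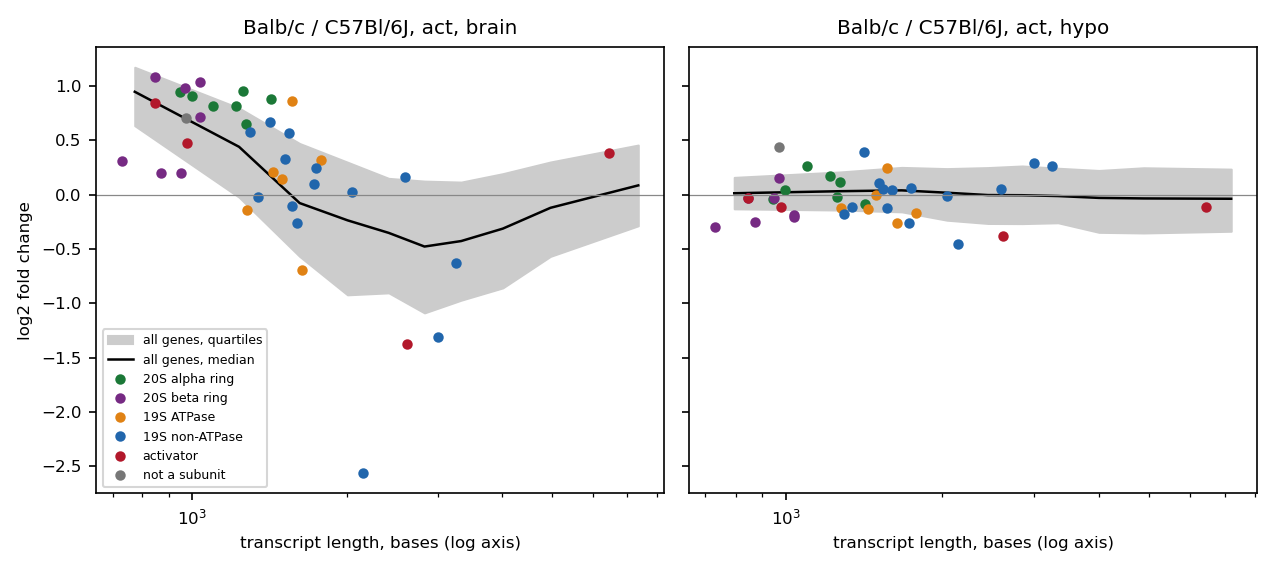
Log2 fold change of Balb/c against C57Bl/6J mice in activated T cells against transcript length in bases (log axis), with the median and quartiles of all genes in 10 bins of length and the members as points coloured by role; rest brain and hypothalamus are separate panels. In rest brain the median of all genes runs from 0.95 in the shortest bin to -0.48 in the sixth, and in the hypothalamus it stays between -0.04 and 0.04; with the GC and length offset 12 of the 17 members that rose in rest brain stayed above 0.

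In hypothalamic activated T cells the strains were not told apart by any member. None of the 39 members tested was called (2 at an unadjusted p under 0.05; 0 by DESeq2 and by limma-voom), against a background of 2.1% of 10877 genes. Psmd3 came first, at 81.5, 127 and 187 CPM in C57Bl/6J and 64.3, 89.9 and 141 CPM in Balb/c mice (n = 8 each), with a log2 fold change of -0.46 and adjusted p = 0.324. Psmb3, a beta-ring subunit, followed (-0.30, adjusted p = 0.463). Psmb2 was at 229 to 429 CPM over both strains there. In rest brain Tregs none of 39 members was called either (1 unadjusted; background 0.299%), and Psmb7 had the smallest p, at 111, 150 and 224 CPM in C57Bl/6J and 24.5, 91.1 and 150 CPM in Balb/c mice (-0.90, adjusted p = 0.517).

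Whether the strain difference itself differed was tested with interaction terms, added after the strain comparison had been seen. Between the tissues of activated T cells it differed for 12 of 40 members, 2 higher and 10 lower in the hypothalamus than in rest brain, against a background of 10.4% of genes (4.84% higher, 5.58% lower). These 12 were all among the 21 members called in rest brain, with which the test shares libraries. The differences of log2 fold changes were -1.21 ± 0.22 for Psmb1, -1.08 for Psmb2 and -0.86 for Psme2, and 2.13 ± 0.40 for Psmd3 and 1.61 for Psmd2. On TPM 9 members were called, 7 higher and 2 lower (15.5% of all genes), and 4 of the 12 kept their call. With library totals 12 were called (11% of all genes), 10 of them shared, and with the offset 1 (3.79%). Between Tregs and activated T cells of rest brain the strain difference differed for 11 of 40 members, 1 higher and 10 lower in Tregs, against a background of 4.8% (1.65% higher, 3.14% lower). They were Psmd3 (2.64 ± 0.64) and, in the other direction, 6 alpha-ring genes (Psma1 at -1.28, Psma6 at -1.26), the beta-ring genes Psmb1, Psmb2 and Psmb7 (-1.78), and Psme2 (-1.24). How many of these calls held depended on the scaling. Of the 11, 9 kept their call with DESeq2's size factors (4.32% of all genes called) and 7 with library totals (4%), where 1 was higher and 6 lower. TPM called 4, each higher in Tregs (6.83%). The offset called 0 (0.186%), with medians of -0.50 over the members and -0.375 over all genes, and 9 of the 10 lower members stayed below 0. On TPM 1 of the 11 kept its call, the 1 higher member stayed above 0 and 9 of the 10 lower ones below 0, while the median over the members turned from -0.63 to 0.28 (from 0.23 to 0.56 over all genes).

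**Figure D5:**
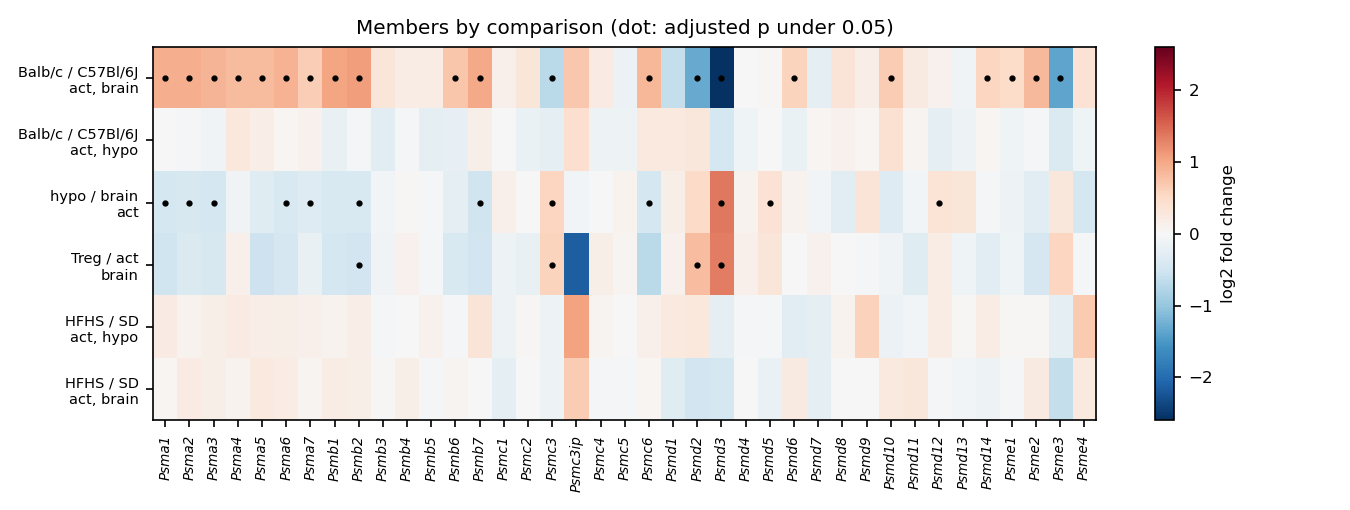
Log2 fold changes of 39 members in 6 comparisons of the second experiment, with a dot where the adjusted p of edgeR's quasi-likelihood test is under 0.05. Most dots lie in the comparison of Balb/c with C57Bl/6J rest brain activated T cells, where 17 members are higher and 4 lower with TMM factors, as drawn, but 5 higher and 18 lower on TPM.

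With TMM-scaled counts, Psmc3 and a few lid and chaperone genes of the cap were higher in hypothalamic than in rest brain activated T cells. Several alpha-ring genes were lower, but none of the members that fell was called on TPM, and no member was called in C57Bl/6J mice alone. With the pool label as a block, fitted on labels found in both tissues, no member was called either. Of 40 members tested 12 were called, 4 higher and 8 lower in the hypothalamus, against a background of 16.9% of 12837 genes (5.66% higher, 11.2% lower). The median log2 fold change was -0.07 over the members and -0.09 over all genes. The ATPase Psmc3 was at 192, 254 and 339 CPM in the hypothalamus (n = 16) and 74.4, 168 and 274 CPM in rest brain (n = 13), a log2 fold change of 0.55 ± 0.11 (adjusted p = 0.000789). Psmd3 was at 64.3, 99.9 and 187 CPM against 3.18, 48.0 and 143 CPM (1.38 ± 0.30, adjusted p = 0.00142). The tissues overlapped for both. The cap genes Psmd12 (0.35, adjusted p = 0.0222) and Psmd5, a chaperone of the cap (0.38, adjusted p = 0.0494), also rose, and 5 alpha-ring genes, Psmb2 (-0.41, adjusted p = 0.0417) and Psmc6 (-0.45, adjusted p = 0.0164) fell. Psmb7, at 68.5, 121 and 200 CPM against 94.4, 153 and 231 CPM, also fell (-0.51 ± 0.14, adjusted p = 0.0108). Of the alpha ring, Psma1 was at 262, 405 and 456 CPM against 278, 466 and 754 CPM (-0.46, adjusted p = 0.0203) but 0.02 in C57Bl/6J mice alone, and Psma3 fell (-0.45, adjusted p = 0.0252) but was at 0.03 in C57Bl/6J mice alone and 0.04 with the GC and length offset. The catalytic Psmb5 (-0.04) and Psmb6 (-0.23) and the PA28 genes Psme1 (-0.13) and Psme2 (-0.29) did not pass, and Psmb5 and Psme1 had the opposite sign on TPM.

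Of these 12 members 10 were also called between the strains of rest brain activated T cells, on shared libraries. In C57Bl/6J mice alone 0 of 39 members was called (0.0087% of all genes) and in Balb/c mice alone 20 of 39, 3 higher and 17 lower (25.5% of all genes). The count was 5 without Balb/c HFHS pool 15_21, 7 without Balb/c HFHS pool 16_20, 6 without Balb/c SD pool 37_41 and 6 without C57Bl/6J SD pool 11_15. On TPM 15 members were called (12.9% of all genes), each of them higher in the hypothalamus, and 4 of the 12 kept their call. The 8 members that fell stayed below 0 on TPM, and none of them was called. With the GC and length offset 11 were called, 9 higher and 2 lower (11.9% of all genes), and 4 of the 12 kept their call. Of the 8 members that fell, 4 stayed below 0 with the offset and 1 was called higher.

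Tregs and activated T cells of rest brain differed in few members. Of 40 tested 5 were called, 3 higher and 2 lower in Tregs, against a background of 15% of 13961 genes (3.98% higher, 11% lower). Psmd3 was at 17.8, 102 and 301 CPM in Tregs (n = 14) and 3.18, 48.0 and 143 CPM in activated T cells (n = 13), a log2 fold change of 1.34 ± 0.44 (adjusted p = 0.0355). Psmd2 was at 91.5, 240 and 360 CPM against 24.8, 124 and 302 CPM (0.80 ± 0.25, adjusted p = 0.0242), and Psmc3 at 117, 264 and 394 CPM against 74.4, 168 and 274 CPM (0.58 ± 0.17, adjusted p = 0.0195). All 3 overlapped between the cell types. Psmb2 fell, at 201, 314 and 405 CPM against 229, 359 and 673 CPM (-0.50 ± 0.17, adjusted p = 0.0381), but its log2 fold change was 0.25 with the GC and length offset. The call of Psmb11 (-3.56 ± 0.98, adjusted p = 0.0115) rests on values of 0 to 0.916 CPM, near 0 in both cell types.

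Here too the strains differed in what was called: 1 of 39 members in C57Bl/6J mice alone (3.58% of all genes) and 17 of 39 in Balb/c mice alone, 4 higher and 13 lower (18.5%). The count was 2 without Balb/c HFHS pool 15_21, 1 without Balb/c HFHS pool 16_20, 1 without Balb/c HFHS pool 47_25, 2 without Balb/c SD pool 37_41 and 3 without Balb/c SD pool 42_46. DESeq2 called 3 members, each higher in Tregs (17.7% of all genes), limma-voom 13, 2 higher and 11 lower (25%), the GC and length offset 15, 14 higher and 1 lower (16.4%), and TPM 7, 6 higher and 1 lower (10.4%). Of the 5 called members 4 were also called between the strains of rest brain activated T cells, on shared libraries. With the pool label as a block, fitted on labels found in both cell types, no member was called.

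By edgeR's quasi-likelihood test diet, the question of the study, moved no member past the threshold in any cell type or tissue, which does not show that the diets acted alike. In hypothalamic activated T cells 0 of 39 members was called (1 at an unadjusted p under 0.05; background 0% of 10877 genes, 406 unadjusted). The smallest p was that of Psmd9, with a log2 fold change of 0.60 ± 0.26 (adjusted p = 1). It was at 24.1 to 56.6 CPM on SD and 56.8 to 103 CPM on HFHS diet in C57Bl/6J mice, without overlap, and at 43.6 to 81.1 and 47.2 to 97.7 CPM in Balb/c mice, with overlap. In rest brain activated T cells 0 of 40 was called (2 unadjusted; background 0% of 12289, 591 unadjusted), and Psme3 (-0.62, adjusted p = 0.951) and Psmd2 (-0.50, adjusted p = 0.998) came first. In Balb/c mice Psme3 was at 47.7 to 68.9 CPM on SD and 10.4 to 32.3 CPM on HFHS diet and Psmd2 at 92.4 to 102 and 24.8 to 56.2 CPM (3 libraries each), without overlap. In C57Bl/6J mice the diets overlapped for both, at 103 to 135 and 92.2 to 143 CPM for Psme3 and at 139 to 302 and 124 to 255 CPM for Psmd2. Psmd9, Psme3 and Psmd2 were picked by their p-values, and gaps between so few libraries are a description only. How many other genes separate in this way was not counted. Whether diet acts differently in the 2 strains was not tested. In rest brain Tregs 0 of 39 was called (0 unadjusted; background 0% of 11711, 853 unadjusted), with Psmd13, a subunit of the lid, first (1.66, adjusted p = 0.885). It was at 0.04 to 81.0 CPM on SD and 59.1 to 160 CPM on HFHS diet in C57Bl/6J mice. DESeq2 and limma-voom called 0 members in these 3 comparisons, while DESeq2 called 16, 12 and 327 genes of all.

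Hypothalamic Tregs showed the members present in some libraries and near 0 in others. In Balb/c mice Psmb7 was at 0.03, 0, 0.18 and 0 CPM in the 4 SD libraries and at 205, 78.6, 200 and 231 CPM in the 4 HFHS libraries, and in C57Bl/6J mice it was at 143 to 674 CPM in all 8. The HFHS and SD libraries of Balb/c mice did not overlap in this gene, but the test over both strains gave a log2 fold change of 5.90 ± 2.92 (adjusted p = 1). Psmb5 was at 0.03, 0, 126 and 0 CPM on SD and 255, 91.6, 158 and 156 CPM on HFHS diet in the same mice. The member scores of these Balb/c libraries were 5.70, 4.05, 4.38 and 4.12 on SD and 6.27, 7.34, 6.60 and 6.90 on HFHS diet, with no overlap. The number of features with more than 10 counts was 3937, 2152, 4260 and 2991 against 5280, 6584, 4850 and 5511, and did not overlap either. Of these 8 libraries 1 was low in Foxp3, SD pool 32_36, with 0.098 CPM of Foxp3 and 20488 CPM of the microglia markers. Without it the SD scores were 4.12 to 5.70 and the features 2991 to 4260, and the diets still did not overlap in either or in Psmb7 (at most 0.176 CPM on SD). Over the 16 hypothalamic Treg libraries Spearman's rho of score and features was 0.938 (0.923 over the 12 not low in Foxp3), and over 16 hypothalamic activated T-cell libraries -0.271, as descriptions of libraries that differ in depth and input. The part of the number of detected genes in the scores was not tested.

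By edgeR's quasi-likelihood test no member was called in the comparisons with these libraries. The diet comparison called 0 of 38 (0 unadjusted; background 0% of 7715 genes, 214 unadjusted; 1 by DESeq2 and 0 by limma-voom) and the strain comparison 0 of 38 (1 unadjusted, Psmb7; background 0.0389%; 1 by DESeq2 and 0 by limma-voom). Against activated T cells, hypothalamic Tregs had 0 of 39 members called (0 unadjusted; background 7.73% of 11285 genes), and the median log2 fold change was -0.09 over the members and -0.60 over all genes. Against rest brain Tregs they had 0 of 39 (0 unadjusted; background 4.93% of 12607 genes), with medians of -0.08 and -0.61. Without the Treg libraries low in Foxp3, 0 members were called in these 4 comparisons as well. Psmc3ip and Psme4 had the smallest p-values in the comparisons with activated T cells and with rest brain Tregs. Psmc3ip was at 0 to 98.2 CPM in hypothalamic Tregs and 0 to 28.9 CPM in activated T cells of the same tissue, and in 1 of the 16 Treg libraries, Balb/c SD pool 06_10, it reached its highest value. Without that pool it was called lower in Tregs (log2 fold change -10.08, adjusted p = 3e-06) and lower than in rest brain Tregs (-8.23, adjusted p = 0.00793). Folds of this size rest on values near 0 in the hypothalamic Treg libraries left. Leaving out any other pool left Psmc3ip uncalled in both comparisons. The interaction of cell type with tissue called 0 of 40 members (2 unadjusted; background 13% of 14771 genes) and 1 without the Treg libraries low in Foxp3.

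The tests with hypothalamic Tregs were the most sensitive to the method. Against activated T cells of the hypothalamus limma-voom called 17 of 39 members lower (65% of all genes called), the deposited TPM 14 lower (52.7%) and the GC and length offset 21 higher (24.9%), while DESeq2 called 1 (14.2%). Against rest brain Tregs the counts were 10 lower by limma-voom (37.5%), 6 lower on TPM (14.1%), 9 higher with the offset (12%) and 1 by DESeq2 (9.5%). No direction is therefore read for the members in hypothalamic Tregs.

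Over the comparisons without interactions, 24 of the 41 members were called in at least 1 and 17 in none. Psma8 passed the filter on low counts in none, Psmb11 did not in the fits of the hypothalamus alone or of Tregs alone, and Psmc3ip did not in those of hypothalamic Tregs. Psmb3, Psmb4, Psmb5, Psmc1, Psmc2, Psmc4 and Psmc5 were among the members called in none, along with Psmd1, Psmd4, Psmd7, Psmd8, Psmd9, Psmd11, Psmd13, Psme4 and Psmc3ip.

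Other genes of the pathway were read from a list of 30 symbols. Between the strains in rest brain activated T cells 15 of 28 tested were called, 10 higher and 5 lower in Balb/c mice, against the background of 23.5% of genes (12.1% higher, 11.3% lower). Here too the split depended on the scaling. Library totals called 13 (7 higher, 6 lower), DESeq2's size factors 16 (11 and 5), the GC and length offset 12 (6 and 6) and the deposited TPM 16 (5 higher, 11 lower). With TMM factors the 3 immunoproteasome genes rose, with log2 fold changes of 0.33 ± 0.11 for Psmb8 (adjusted p = 0.0421), 0.67 ± 0.12 for Psmb9 (adjusted p = 0.000423) and 0.50 ± 0.16 for Psmb10 (adjusted p = 0.0316). In TPM, Psmb8 was at 1429 ± 64.9 in C57Bl/6J (n = 7) and 1140 ± 218 in Balb/c mice (n = 6), and limma called it lower in Balb/c mice (-0.33, adjusted p = 0.0129). Psmb9 was at 630 ± 41.2 and 635 ± 147 TPM and Psmb10 at 331 ± 39.8 and 298 ± 45.2 TPM, and neither was called on TPM. With TMM factors the assembly chaperone Psmg4 (1.34) and the maturation factor Pomp (0.65) rose, as did Sem1, the smallest subunit of the lid (1.17), and Rps27a, which encodes ubiquitin fused to a ribosomal protein (1.37). With the offset Pomp (-0.44, adjusted p = 0.00474) and Sem1 (-0.87, adjusted p = 0.000308) were called lower. The unfoldase gene Vcp (-1.38) and the shuttle factor Rad23b (-1.27) fell, and stayed below 0 under each of these scalings, as Psmg4 and Rps27a stayed above. Nfe2l1 did not pass (-0.47, adjusted p = 0.524). In the hypothalamus Psmb9 was called higher in Balb/c mice (0.53 ± 0.09, adjusted p = 0.00358). Diet called none of the list.

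In the pilot experiment each condition had 1 library, so ratios carry counting error only (95% exact Clopper-Pearson intervals) and no test was made. Counts were divided by size factors, and a gene was called past 2-fold with more than 20 normalized reads in at least 1 library. Between HFHS diet and SD in CD44- T cells, 12 of 37 members were past 2-fold, 7 higher and 5 lower, against a background of 61.9% of 6686 genes. The median ratio was 1.22 over the members and 0.84 over all genes. Psmb2 had 2235 counts on HFHS diet and 848 on SD, a normalized ratio of 4.49 (4.15 to 4.87). Psma6 had a ratio of 3.15 (2.95 to 3.38) and Psma2 of 3.02 (2.80 to 3.27). Psmd7, a subunit of the lid, had 0 counts against 382, a ratio of at most 0.0134 at a floor of 3 counts (exact upper limit 0.0165). The catalytic Psmb6 and Psmb7 stayed within 2-fold, at 1.96 (1.76 to 2.18) and 1.22 (0.999 to 1.49), and Psmb5 had 0 and 2 counts.

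In the pilot Tregs 15 of 30 members were past 2-fold between the diets, 9 higher and 6 lower, against a background of 80.5% of 5445 genes. The median ratio was 1.08 over the members and 1.71 over all genes. Psmb2 was again higher on HFHS diet, with 895 counts against 206 and a ratio of 3.62 (3.11 to 4.23), and so was Psmc5, with 306 against 40 counts (6.37, 4.57 to 9.09). Psme4 had 939 counts against 0, and was at least 261-fold higher at the floor of 3 counts (exact lower limit 211). Psme1 was lower, at 212 against 424 counts (0.42, 0.35 to 0.49). For ob/ob against wild-type mice 24 of 33 members were past 2-fold in CD4+ T cells, 17 higher and 7 lower (background 85.8%), and 23 of 30 in Tregs, 5 higher and 18 lower (background 79.6%). All genes were shifted the same way. The median ratio was 2.08 over the members and 2.48 over all genes in CD4+ T cells, and 0.30 and 0.41 in Tregs. The wild-type CD4+ library held 220336 counts and the ob/ob Treg library 99925, and 21 and 23 of the 41 members were at 0 there. Psmb2 had 1093 counts in ob/ob and 0 in wild-type CD4+ T cells, at least 46.7-fold higher at the floor (exact lower limit 37.9), and 70 against 196 counts in Tregs, a normalized ratio of 5.58 (4.18 to 7.37). In the second experiment Psmb2 was not called for diet in any comparison.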

How the data were processed

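T cells were sorted from mouse hypothalamus and rest brain and sequenced as pools. For the second experiment the authors quantified paired-end reads with Salmon in the nf-core/rnaseq pipeline on mm10 and deposited expected counts (Salmon's estimated counts) and TPM per transcript and library. For the pilot experiment the authors aligned single-end reads with BWA to mm10 and deposited HTSeq read counts per gene, per the labels. Versions of Salmon, BWA and HTSeq are not given in the sources used here.

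Here estimated counts were summed per gene through the RefSeq names (34652 of 35034 names matched, 98.91%), and rounded. A gene was tested if it exceeded 10 counts in a number of libraries no smaller than the smallest group of the fit. Length normalization is absent from counts and CPM, so levels were compared between genes on TPM. Differences were tested in R 4.3.3 with edgeR 4.0.16 (TMM factors, quasi-likelihood test, strain, diet, tissue or cell type as covariates, Benjamini-Hochberg adjustment over all genes tested). DESeq2 1.42.0 and limma 3.58.1 gave alternatives, along with library totals, a GC and length offset, TPM, single strains or diets, the pool label as a block, and leaving out each library or pool. The offset, library totals, TPM, single strains, both strain interactions and descriptions without the Treg libraries low in Foxp3 (under 5 CPM) were added after seeing the data. The pilot counts were scaled by median-of-ratios size factors over 786 genes. The fits across all genes were tested on simulated data. The members and lists were chosen with earlier results of these data known. Some genes of the pathway list are counted but not reported singly here. Values per library or group are given for the 3 members with the largest rise and the 3 with the largest fall among those called in a comparison (the 2 smallest p-values where none was), the highest and lowest members by TPM, Psmb5, Psmb6, Psmb7, Psme1 and Psme2. Psma2, Psmc3, Psmd1, Psmb3 and other members described beside them were chosen after their values were seen.

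Replicates are libraries of 1 group with different pool labels. Label 67_66, of C57Bl/6J activated T cells on SD, may be a variant of another label and was treated as its own pool. Of 82 pairs of libraries within groups none agreed within sampling noise. No source used here says that libraries sharing a pool label came from the same mice, so the main fits have no pool block. Depth sets the error of low genes, and intervals of the pilot cover counting error only, since reads carried no molecular identifiers.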

Additional observations from a re-analysis of the deposited data

Results flagged for a closer look

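The member score and named members were checked in the groups of 4 libraries, 120 checks in all, on the log2(CPM + 1) scale. In 15 of these checks a library lay far from the others of its group. Chance alone gives this in about 1 check of 20, but the checks share libraries and were not independent. The score of the C57Bl/6J SD pool 11_15 was 6.104 in rest brain Tregs (others 6.965 to 7.072) and 6.83 in hypothalamic activated T cells (others 7.133 to 7.185). In rest brain Tregs, Psmd2 of that pool was at 8.054 (others 7.542 to 7.581), Psmd3 of C57Bl/6J SD pool 67_71 at 4.23 (others 6.509 to 6.623) and Psme2 of Balb/c HFHS pool 16_20 at 9.599 (others 9.134 to 9.197).

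The other 10 were in hypothalamic Tregs. In the C57Bl/6J HFHS pool 06_10, Psmb6 was at 0.331 (others 7.289 to 8.72), Psme1 at 1.654 (others 9.535 to 10.084) and Psme2 at 7.309 (others 10.184 to 10.592). In Balb/c SD mice, pool 37_41 had Psmb5 at 6.994 (others 0 to 0.042), Psmd2 at 6.717 (others 0) and Psmb2 at 0.525 (others 7.865 to 8.237), and pool 42_46 had Psmd3 at 8.068 (others 0) and Psmb1 at 0.0 (others 8.184 to 8.812). Psmb7 of Balb/c HFHS pool 15_21 was at 6.314 (others 7.651 to 7.861) and Psmb1 of C57Bl/6J SD pool 43_47 at 1.454 (others 8.626 to 9.52).

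The strain difference of activated T cells differed between hypothalamus and rest brain by an interaction term for 12 members, among them Psmb1 (-1.21), Psmb2 (-1.08), Psma2 (-0.98), Psmb6 (-0.9), Psme2 (-0.86), Psmb7 (-0.77), Psme1 (-0.54), Psmd2 (1.61) and Psmd3 (2.13). The strain difference of rest brain cells differed between Tregs and activated T cells for 11 members, among them Psmb7 (-1.78), Psma1 (-1.28), Psma6 (-1.26), Psme2 (-1.24) and Psmd3 (2.64).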

How the results depend on the processing

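Counts of members called are given here under the alternatives that moved them. For Tregs against activated T cells of the hypothalamus (0 in the report) DESeq2 called 1, limma-voom 17, the GC and length offset 21, TPM with limma 14 and C57Bl/6J mice alone 1. For the same in rest brain (5) DESeq2 called 3, no filter 8, limma-voom 13, the offset 15, C57Bl/6J alone 1 and Balb/c alone 17. For hypothalamus against rest brain in activated T cells (12) C57Bl/6J alone gave 0 and Balb/c alone 20. In Tregs (0) DESeq2 gave 1, limma-voom 10, the offset 9 and TPM 6. DESeq2 called 1 in both the strain and the diet comparison of hypothalamic Tregs (0). Between strains in rest brain activated T cells (21) the offset gave 12 and SD alone 8. The interaction of cell type and tissue (0) gave 15 with limma-voom, 25 with the offset, 7 on TPM and 1 without Treg libraries low in Foxp3. The interaction of strain and tissue (12) gave 1 with the offset, and that of strain and cell type (11) gave 0 with the offset, 7 with library totals and 4 on TPM. Whether libraries that share a pool label came from the same mice is not stated. In both arms of the comparisons of cell types (hypothalamus, rest brain) and of tissues (activated T cells, Tregs), 15, 12, 9 and 10 labels were found. Of these labels 0 had deviations correlated over 0.1 (medians 0.008, -0.002, 0.009 and -0.013), which cannot show that the mice differed. With the pool label as a block, 4, 0, 0 and 0 members were called in these comparisons.

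Leaving out 1 library or pool gave 0 to 1 members for Tregs against activated T cells in the hypothalamus, 1 to 7 in rest brain, 5 to 15 between the tissues of activated T cells, 0 to 1 between those of Tregs and 17 to 21 between strains in rest brain activated T cells. Values of members named by the rule turned in direction, with a call in at least 1 of the fits compared, for Psmb2 between the cell types of rest brain (0.25, offset), and between the tissues of activated T cells for Psma1 (0.022, C57Bl/6J alone), Psma3 (0.044, offset, and 0.028, C57Bl/6J alone), Psmb5 (0.24, TPM) and Psme1 (0.16, TPM). They also turned between the strains of rest brain activated T cells for Psmb5 (-0.47) and Psme1 (-0.19) on TPM, and in the interaction of strain and tissue for Psma2 (0.34, offset) and Psme1 (0.078, TPM). Requiring more than 20 normalized reads in both pilot libraries left 6 and 8 members past 2-fold for diet in CD44- T cells and Tregs, and 9 and 8 for ob/ob mice. Member scores over only members with more than 10 counts in over 29 libraries were 7.52 in hypothalamic activated T cells, 7.47 in rest brain ones and 7.35 in rest brain Tregs, and TMM scaling gave 7.20 in rest brain activated T cells. Apart from those named, the cause of these changes was not tested. Of the values of members named by the rule under other settings, 496 stayed on their side of the threshold (uncalled values that changed sign included), 67 lost a call, 31 gained one and these 10 turned. Psma2, described outside the rule, also turned between the strains of rest brain activated T cells (-0.38, offset).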
